A study of Mus musculus with 3 samples.

Results

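Unswitched B cells with mutated heavy chains are B cells that still carry the IgM or IgD constant region while their antibody heavy chain V segment differs from its germline gene. They were found as cell barcodes whose heavy chain contig with the most UMIs had an IGHM or IGHD constant region and a V identity to germline low enough to leave at least 3 mismatches, and 66 of the 2014 barcodes with a heavy chain met this rule (64 IGHM and 2 IGHD). A further 1535 IgM or IgD barcodes had a V identity of 1 and served as the unmutated comparison, and 124 lay between. The cells were splenic B lymphocytes from 3 LDHA-sufficient and 3 LDHA-deficient animals, 6 in all. They had been tagged with an antibody hashtag for each mouse, sorted as viable B cells and by the activation marker GL7, and pooled on a single 10x lane, per the labels. Transcripts, hashtags and heavy chains were read from that lane. LDHA makes lactate from pyruvate, the last step of glycolysis. The deficient mice carry the tag KO in the labels and the sufficient mice WT. How and in which cells the gene was deleted, the strain, age and immunisation are not stated in the labels, nor is the way in which the GL7 gates of each mouse were pooled.

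Somatic hypermutation is the process by which activated B cells change the bases of their V segments. It starts at C bases and prefers those in certain motifs. It takes place mainly in germinal centres (GCs), where B cells divide, mutate, compete for antigen and T cell help, and often switch to another constant region, though switching and mutation need not go together. Cells that keep IgM after mutation include GC B cells, IgM memory B cells and some plasma cells. A V mismatch can also come from a germline allele that the reference lacks, and such an allele gives the same mismatch in every cell that uses it.

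Of the 66 barcodes, 55 were in the gene expression matrix. Of these, 37 had a single hashtag and passed the cell filter, 18 carried hashtags of more than 1 mouse and were used for sequences only, and 11 were outside the expression and hashtag tables. The 37 cells came as 8, 17 and 1 from LDHA-sufficient mice 1, 2 and 3 and as 2, 4 and 5 from LDHA-deficient mice 1, 2 and 3. Over all cells of the series, 1730 of the 2014 heavy chain barcodes and 2831 of 2836 expression barcodes were shared between the tables, and the mice had 239 to 367 cells past the filter, with a median of 3712 to 4362.5 UMIs per cell. For the hashtag and BCR libraries the labels name the cells as hematopoietic stem and progenitor cells, whereas their protocols describe sorted B cells. All 8 B lineage markers, among them Cd79a, Pax5 and Ms4a1, were detected in the mutated cells, with a summed level of 12131 to 27565 CPM (UMI counts scaled to the total of each mouse's sum) over the 6 mice against 19975 to 23143 in unmutated cells. Of the 15 T and NK cell markers, 13 had 0 UMIs in all mutated cells, Cd3e, Cd4 and Nkg7 included, and 24 of the 25 UMIs of that list were of the kinase Lck. Of 14 myeloid and dendritic cell markers, 6 had 0 UMIs, and 180 of the 276 UMIs were of Irf8, which B cells also express.

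The values that chose these barcodes were mismatch counts. Mutated barcodes had 3 to 15 mismatches in V, with a median of 5 (65 of 66 had an alignment to count). The numbers with 3, 4 and 8 or more mismatches were 16, 13 and 15. The rule is a cutoff on V identity, the deposited share of V bases that match the germline gene. The highest V identity inside it was 0.99003, with 3 mismatches, and the lowest outside was 0.99313, with 2, which 23 barcodes had. The other 101 barcodes between the classes had 1 mismatch.

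A family of related chains that uses IGHV5-17, the V gene with the most mutated barcodes, shows what these mismatches look like. IGHV5-17 lies at chr12:113859149-113859670 on the minus strand (mm10, GENCODE vM21). Each sequence below runs 5′ to 3′ over the V segment to the end of framework 3. Capitals mark bases that differ from the germline gene in the deposited alignment. Members 1 to 6 are numbered by falling heavy chain UMIs. Member 1 had 156 UMIs and hashtags of more than 1 mouse, member 3 (27 UMIs) was from LDHA-sufficient mouse 2, member 4 (16 UMIs) was outside the hashtag table, and member 5 (12 UMIs) was from LDHA-deficient mouse 2.
IGHV5-17 germline: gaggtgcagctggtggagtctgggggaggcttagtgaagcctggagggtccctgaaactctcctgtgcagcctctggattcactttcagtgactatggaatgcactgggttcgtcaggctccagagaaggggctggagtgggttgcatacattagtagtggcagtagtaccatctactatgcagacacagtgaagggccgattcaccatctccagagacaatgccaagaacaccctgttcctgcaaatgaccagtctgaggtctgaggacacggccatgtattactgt
IGHV5-17 member 1: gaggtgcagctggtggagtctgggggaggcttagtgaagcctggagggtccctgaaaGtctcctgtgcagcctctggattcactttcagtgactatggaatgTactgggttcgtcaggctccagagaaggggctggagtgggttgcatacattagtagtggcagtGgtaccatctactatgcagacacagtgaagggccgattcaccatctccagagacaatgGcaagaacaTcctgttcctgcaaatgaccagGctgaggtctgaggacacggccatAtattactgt
IGHV5-17 member 3: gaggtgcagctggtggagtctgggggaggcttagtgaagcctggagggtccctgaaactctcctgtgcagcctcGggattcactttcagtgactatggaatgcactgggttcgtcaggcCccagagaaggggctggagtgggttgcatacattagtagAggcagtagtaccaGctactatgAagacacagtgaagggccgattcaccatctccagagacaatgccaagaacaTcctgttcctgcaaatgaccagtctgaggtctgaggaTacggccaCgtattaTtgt
IGHV5-17 member 4: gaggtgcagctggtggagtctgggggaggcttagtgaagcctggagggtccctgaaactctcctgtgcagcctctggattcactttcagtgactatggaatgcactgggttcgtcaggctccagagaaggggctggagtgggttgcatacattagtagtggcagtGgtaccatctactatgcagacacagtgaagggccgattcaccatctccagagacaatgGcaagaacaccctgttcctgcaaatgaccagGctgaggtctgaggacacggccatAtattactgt
IGHV5-17 member 5: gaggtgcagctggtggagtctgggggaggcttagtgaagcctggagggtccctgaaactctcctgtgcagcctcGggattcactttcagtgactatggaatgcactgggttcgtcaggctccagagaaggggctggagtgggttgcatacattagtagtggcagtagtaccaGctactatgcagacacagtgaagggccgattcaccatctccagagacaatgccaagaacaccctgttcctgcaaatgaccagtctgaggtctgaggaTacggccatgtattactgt

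The deposited clone number joined 11 barcodes of this family, 6 of them mutated IgM and 5 IgG, with 1 to 9 V mismatches. The 6 IgM chains shared 1 junction (the stretch from the end of V to the start of J that holds the binding loop CDR3), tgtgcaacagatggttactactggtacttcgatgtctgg, and carried 1 of 2 sets of shared mismatches. Positions below follow the IMGT numbering of the V segment, counted from 1 at its 5′ end, with the germline base first. Members 1, 2 and 4 carried A187G, C248G, T279G and G303A, and members 3, 5 and 6 carried T78G, T194G and C294T. No IgM chain carried mismatches of both sets, but C257T was on member 1 of the first set and on member 3 of the other. Of the 5 IgG chains, all from LDHA-sufficient mouse 2, 3 carried A187G and G303A and 1 of these had the other 2 of that set as well. T78G, T194G and C294T were thus on cells assigned to LDHA-sufficient mouse 2 and LDHA-deficient mouse 2, and the cell of the deficient mouse had 1857 UMIs, a second heavy contig and no cluster name.

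Among mutated cells, 2 identical chains were found in more than 1 mouse. Both of the following chains, identical over their whole length, were on 1 cell of LDHA-sufficient mouse 2 and 1 cell of LDHA-deficient mouse 3. They are shown because they bear on which mouse a mutated cell belongs to.
IGHV5-12 shared chain: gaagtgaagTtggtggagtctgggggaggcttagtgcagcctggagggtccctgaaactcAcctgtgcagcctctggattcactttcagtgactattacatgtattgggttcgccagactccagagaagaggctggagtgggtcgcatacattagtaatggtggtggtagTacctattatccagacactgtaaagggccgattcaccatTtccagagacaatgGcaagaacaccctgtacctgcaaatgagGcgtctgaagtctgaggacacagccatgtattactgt
IGHV8-8 shared chain: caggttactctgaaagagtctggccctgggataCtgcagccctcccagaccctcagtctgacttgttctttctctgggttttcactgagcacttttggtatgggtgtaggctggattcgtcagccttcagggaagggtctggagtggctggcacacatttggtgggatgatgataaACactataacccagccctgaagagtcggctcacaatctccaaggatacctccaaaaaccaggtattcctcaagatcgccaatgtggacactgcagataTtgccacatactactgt

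The IGHV5-12 chain, with 6 mismatches and the junction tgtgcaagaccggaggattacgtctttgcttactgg, had 26 heavy chain UMIs in the deficient cell and 7 in the sufficient cell. The IGHV8-8 chain, with 5 mismatches, 1 of them past the stretch shown, had 50 UMIs in the sufficient cell, which was GC B-like, and 17 in the deficient cell, which was follicular B-like. The top hashtag of these 4 cells had 601 to 1446 UMIs and the second 25 to 83. Such chains made up 4 of 37 mutated cells (10.8%, 95% exact Clopper-Pearson interval 3.03% to 25.4%) and 10 of 963 unmutated cells (1.04%, 0.499% to 1.90%), a difference that was not tested over mice.

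Allele differences were looked for V gene by V gene. A mismatch was called recurrent when at least 80% of at least 5 clones with a V call, in at least 2 mice, carried the same base. 2 positions met this, and the stretches of 20 bases on each side show them, with the position in capitals.
IGHV1-69 germline: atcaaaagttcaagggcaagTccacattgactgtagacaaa
IGHV1-69 observed: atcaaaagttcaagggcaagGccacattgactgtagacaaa
IGHV2-6-1 germline: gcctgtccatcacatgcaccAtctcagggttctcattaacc
IGHV2-6-1 observed: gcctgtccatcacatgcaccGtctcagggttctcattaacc

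T226G in IGHV1-69 was on 25 of 25 clones in 6 mice, and the mm10 genome has the T as well. A73G under the joint call IGHV2-6-1 or IGHV2-6-2 was on 9 of 9 clones in 4 mice, and all 10 barcodes with it matched the genomic gene Ighv2-6 exactly. Masking both positions moved 48 of the 124 in-between barcodes to an identity of 1 and moved 0 of the 66 mutated barcodes, none of which used these V calls. Against the V genes of mm10, and over the stretch to the end of framework 3 only, 65 of 65 mutated barcodes had as many mismatches to the closest gene as to the deposited germline, 0 matched any gene exactly, and the named V gene was the closest for 66 of 66. All 1535 unmutated barcodes matched the genome exactly.

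A larger share of the mismatches than of the bases lay at hypermutation hotspots, but the difference did not pass the test over mice. Counted once per clone, there were 339 in 15279 bases, or 22.2 per 1000 bases. Hotspots were the C of AGC, TAC, AAC and TGC, or the G of the reverse complements GCT, GTA, GTT and GCA on the other strand. They held 39.5% of the mismatches (134 of 339) and 14.0% of the germline bases. By mouse the share at hotspots was 34.9%, 46.9% and 0% in LDHA-sufficient mice 1, 2 and 3 and 25%, 37.5% and 35.5% in LDHA-deficient mice 1, 2 and 3, above the share of bases in 5 of 6 mice. LDHA-sufficient mouse 3, the exception, had 3 mismatches in 1 clone. The mean was 30.0% ± 16.2 against 13.1% ± 1.16 of bases (SD, n = 6 mice), and the exact two-sided sign-flip permutation test over mice gave p = 0.09375, where 0.031 is the smallest possible. Private mismatches of the in-between barcodes lay at hotspots in 46.7% of cases (28 of 60, counted once per clone). The recurrent ones did so in 0 of 48 barcodes, but these only repeat T226G and A73G and are counted per barcode, so the counts are not alike.

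Among the V regions, CDR2, which forms one of the binding loops, had the highest rate with 43.5 mismatches per 1000 bases. The rates were 14.8 in framework 1, 23.1 in CDR1, 23.7 in framework 2 and 21.7 in framework 3. CDR1 and CDR2 together held 25.1% of mismatches and 16.7% of bases. By mouse this difference was smaller than the spread (mean difference 1.57 percentage points, higher in 4 of 6 mice, exact sign-flip permutation p = 0.6875). In the frameworks 63.8% of mismatches changed the amino acid (162 of 254), against 77.6% if every base had been changed evenly to each other base. In CDR1 and CDR2 the share was 81.2% (69 of 85) against 78.9%. Transitions made up 60.5% of mismatches. The most mutated single chain of a hashtag-assigned cell, an IGHV9-3 chain of LDHA-deficient mouse 3 with 14 mismatches, 1 of them (C314T) past the stretch shown, shows how they spread over the segment, and again capitals mark mismatches.
IGHV9-3 member: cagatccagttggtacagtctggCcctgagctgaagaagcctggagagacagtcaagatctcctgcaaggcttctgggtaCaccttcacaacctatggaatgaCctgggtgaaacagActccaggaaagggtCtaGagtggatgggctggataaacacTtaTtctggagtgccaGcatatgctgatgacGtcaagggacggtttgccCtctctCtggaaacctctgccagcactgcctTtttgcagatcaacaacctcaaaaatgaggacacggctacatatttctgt

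**Figure D1:**
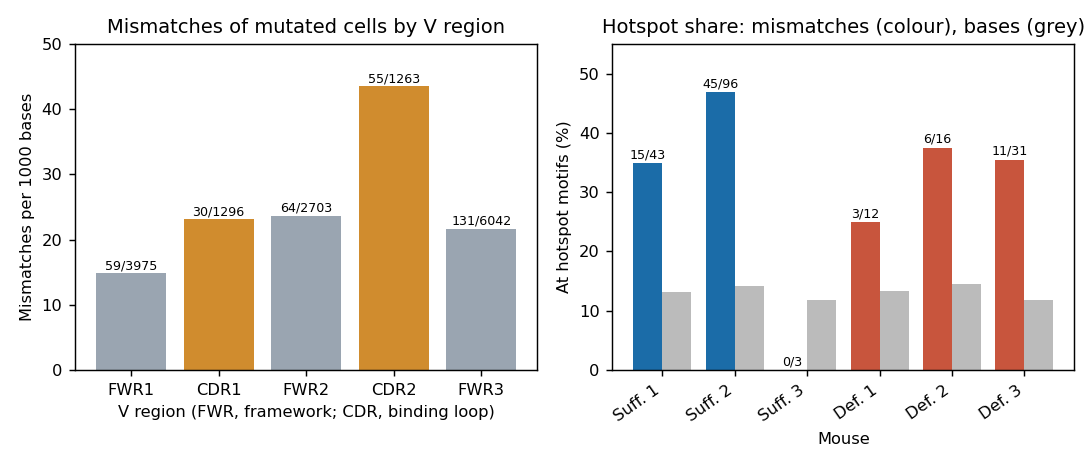
Left, V mismatches per 1000 bases of mutated barcodes by V region, counted once per clone, with mismatches over bases above each bar. Right, percent of mismatches (coloured, blue for LDHA-sufficient and red for LDHA-deficient mice) and of germline bases (grey) at hotspot motifs in each mouse. CDR2 had 43.5 mismatches per 1000 bases, and the coloured bar is above the grey one in 5 of 6 mice.

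A readout that the rule did not use is the J segment, part of the same heavy chain. J mismatches were on 8 of 65 mutated barcodes (12.3%, exact interval 5.47% to 22.8%), on 0 of 124 in-between barcodes (up to 2.93% by the same interval) and on 2 of 1534 unmutated barcodes (0.130%, 0.0158% to 0.470%). Among cells with a single hashtag there were 2 of 36 and 1 of 963. Over mice the share was higher among mutated cells in 2 of 6 mice and the exact sign-flip permutation test gave p = 0.5.

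Mutated barcodes used 38 of the 86 V genes seen among unswitched barcodes, in 54 clones. The 8 V genes with the most mutated barcodes were IGHV5-17 with 6 (all 1 clone), IGHV9-3 with 5, IGHV1-26 and IGHV8-8 with 4 each, IGHV1-55, IGHV3-6 and IGHV5-12 with 3 each, and IGHV1-12 with 2, where 6 other genes tied. Family 1 supplied 47.0% of mutated and 56.1% of unmutated barcodes, family 5 15.2% and 8.14%, and family 9 9.09% and 4.95%. These shares were not tested, since members of a clone share their V gene. IGHV1-49, with 1 mutated barcode, was the only V gene of mutated barcodes with no unmutated one, so nearly all mutated chains used a V gene that was also read in germline form.

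Clones were mostly small. Of the 54 clones, 35 held 1 barcode, 10 also held unmutated barcodes, 5 also held switched barcodes and 6 had cells of more than 1 mouse under the deposited clone numbers. After the IGHV5-17 clone, the largest was an IGHV9-3 clone of 7 barcodes (2 mutated, 4 in between and 1 unmutated, with 5 different junctions and cells of 3 mice). Next came an IGHV1-26 clone of 6 (2 mutated and 4 in between) and an IGHV1-49 clone of 5 (1 mutated IgM and 4 switched). Their cells with a single hashtag were of LDHA-sufficient mouse 2 and LDHA-sufficient mouse 1, respectively. Both clones also held a barcode with hashtags of more than 1 mouse, and the IGHV1-49 clone a barcode outside the hashtag table. IGHV14-3, IGHV1-58 and IGHV2-2 clones followed with 4 barcodes each. The tool that joined the clones is not stated in the labels or headers.

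Most mutated cells had the transcriptome of GC B cells. Cells were clustered on expression with antibody segments left out, so the clusters do not use the rule. 2 clusters with 12 of 13 GC markers raised, Bcl6, S1pr2, Mef2b and Rgs13 among them, were called GC B-like. They held 25 of the 37 mutated cells (67.6%, exact interval 50.2% to 82.0%), 25 of 79 in-between cells (31.6%) and 30 of 963 unmutated cells (3.12%, 2.11% to 4.42%). By mouse 7 of 8, 13 of 17 and 1 of 1 mutated cells were GC B-like in LDHA-sufficient mice 1, 2 and 3, against 6 of 154, 12 of 149 and 6 of 175 unmutated cells. In LDHA-deficient mice 1, 2 and 3 it was 1 of 2, 2 of 4 and 1 of 5 mutated cells against 3 of 148, 1 of 218 and 2 of 119 unmutated cells. The share was higher among mutated cells in 6 of 6 mice, by a mean of 60.7 percentage points (64.0% ± 29.4 against 3.26% ± 2.66, SD). The exact two-sided sign-flip permutation test over the 6 mice gave p = 0.031, the smallest it can give, and 0.0833 after Benjamini-Hochberg adjustment over 8 cell classes. 1 of the GC B-like clusters was led by cell division genes such as Cenpe, Top2a and Mki67 (15 mutated and 22 unmutated cells), and the other by Rgs13, Neil1 and S1pr2 (10 and 8). Mutated cells were deeper, with a median of 10611 UMIs per cell against 4079, and 13220 against 13733 within GC B-like cells. More than 1 heavy contig, which a doublet can give, was on 5 of the 37 mutated cells (13.5%) and 65 of the 963 unmutated ones (6.75%). Over all barcodes it was 15 of 66 (22.7%) and 192 of 1535 (12.5%). This difference was not tested.

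**Figure D2:**
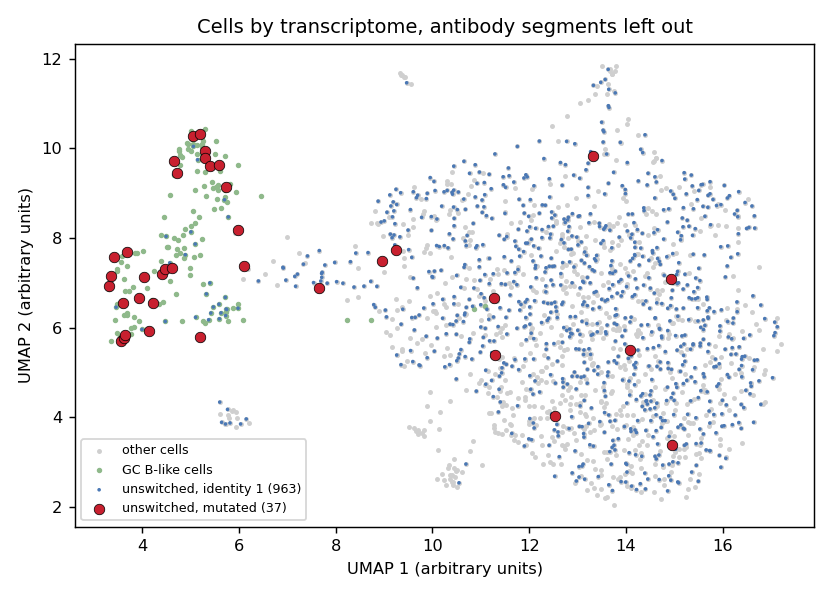
Each point is a cell past the filter, placed by expression with antibody segments left out (UMAP axes have no unit). The 37 mutated cells (red, outlined) lie mostly with the GC B-like cells (green) on the left, which held 25 of them, while the 963 unmutated cells (blue) lie mostly on the right.

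The 12 mutated cells outside the GC B-like clusters were spread over 6 groups. 4 lay in a cluster led by Egr3, Nr4a1 and Myc, genes induced early by antigen receptor signals, 3 were follicular B-like, 2 were in an unnamed cluster, and 1 each was marginal zone B-like, interferon-responding and plasma cell-like. No mutated cell was transitional B-like, which allows up to 9.49% by the exact interval, against 50 of 963 unmutated cells. The plasma cell-like cell was from LDHA-sufficient mouse 1 and carried 7 mismatches in IGHV1-77. Follicular B-like cells were 7.65% ± 16.0 of mutated and 36.0% ± 3.01 of unmutated cells (mean ± SD over 6 mice, exact sign-flip permutation p = 0.0625, adjusted 0.1).

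The GC B-like share was higher from the first private mismatch on, with pooled cells and no test over mice. It was 30 of 963 with 0 mismatches, 15 of 32 with 1 private mismatch (46.9%, exact interval 29.1% to 65.3%) and 9 of 14 with 2 (64.3%, 35.1% to 87.2%), both groups lying outside the rule. It was 14 of 16 with 3 or 4 (87.5%, 61.7% to 98.4%) and 11 of 20 with 5 or more (55%, 31.5% to 76.9%), so the intervals of these last groups overlapped. Cells with 1 recurrent mismatch were GC B-like in 1 of 33 cases (3.03%, 0.0767% to 15.8%), close to cells with none. Switched IgG cells with a single hashtag, for comparison, had a median of 5 mismatches, and 27 of 38 were at or below the same identity. Counted regardless of identity, 27 of these 38 cells were GC B-like, against 25 of the 37 mutated unswitched cells, so a high GC B-like share was not particular to the latter.

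**Figure D3:**
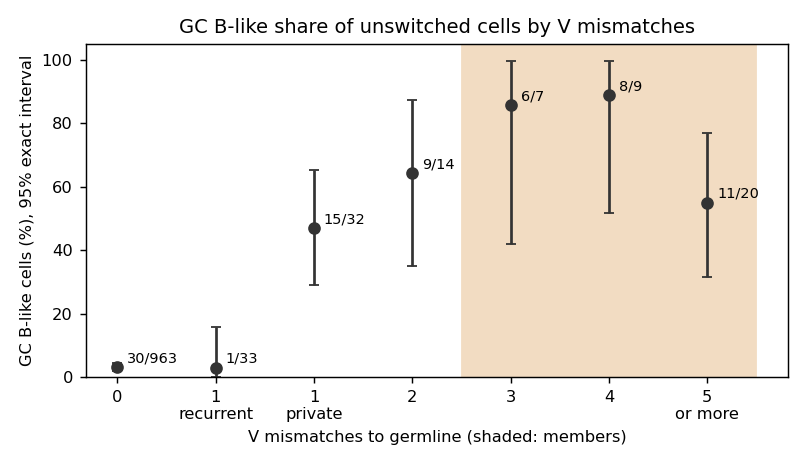
Percent of unswitched cells that were GC B-like (y axis, with 95% exact intervals for counting error) by the number of V mismatches (x axis), with counts beside each point; shading marks the mutated cells. The share was 3.03% with 1 recurrent mismatch and 46.9% with 1 private mismatch.

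Mutated cells were more frequent in some mice than in others, and the genotypes overlapped. They were 8 of 184 unswitched cells (4.35%, exact interval 1.90% to 8.39%), 17 of 189 (8.99%, 5.33% to 14.0%) and 1 of 186 (0.538%) in LDHA-sufficient mice 1, 2 and 3. In LDHA-deficient mice 1, 2 and 3 they were 2 of 157 (1.27%), 4 of 230 (1.74%) and 5 of 133 (3.76%, 1.23% to 8.56%). LDHA-sufficient mouse 2 was the highest and LDHA-sufficient mouse 3 the lowest of all 6. The means were 4.63% ± 4.24 and 2.26% ± 1.32 (SD, n = 3 each; exact two-sided permutation p = 0.6). Without LDHA-sufficient mouse 2 the difference between genotypes fell from -2.37 to -0.185 percentage points, without LDHA-sufficient mouse 3 it was -4.41, and among cells of neither GC B-like nor plasma cell-like clusters it turned to 0.675. Among mutated cells, the GC B-like share did not overlap between genotypes, at 88.0% ± 11.8 with LDHA and 40% ± 17.3 in the deficient mice. The exact permutation p was 0.1, the smallest that 3 against 3 allows, and the deficient values rest on 11 cells. The cells of LDHA-deficient mouse 3 with the shared IGHV5-12 and IGHV8-8 chains were outside the GC B-like clusters. So was the IGHV5-17 cell of LDHA-deficient mouse 2. Of their counterparts in LDHA-sufficient mouse 2, the IGHV5-12 cell was follicular B-like and the others GC B-like. The effect of the mouse assignment of these cells was not tested. Among unmutated cells the GC B-like shares were 5.13% ± 2.55 and 1.39% ± 0.824 (p = 0.1, exact permutation), likewise without overlap.

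**Figure D4:**
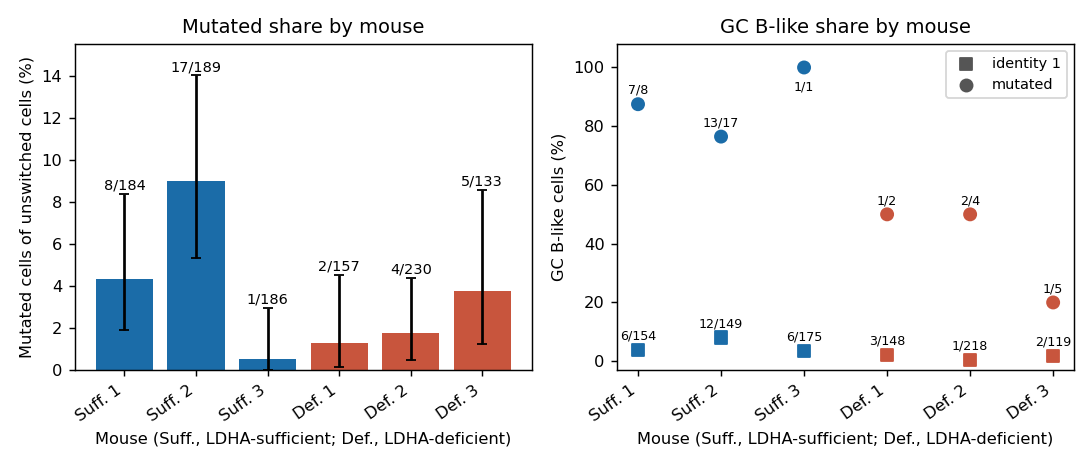
Left, percent of unswitched cells that were mutated in each mouse, with 95% exact intervals and counts (blue, LDHA-sufficient; red, LDHA-deficient). Right, percent of mutated (circles) and unmutated (squares) cells that were GC B-like in each mouse; the circle is above the square in 6 of 6 mice.

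Genes of GC B cells and of cell division were higher in mutated than in unmutated cells, and genes of resting and memory B cells were lower. UMIs were summed per mouse and class, and the classes were compared within mice by edgeR's quasi-likelihood test. A minimum of 5 cells per sum left LDHA-sufficient mice 1 and 2 and LDHA-deficient mouse 3. Of 5799 genes tested, 833 (14.4%) passed a Benjamini-Hochberg adjusted p of 0.05, 393 higher (6.78%) and 440 lower (7.59%). Of them, 809 had the same sign in each of the 3 mice, and 25 were antibody segments. Over all 6 mice, with sums of as little as 1 cell, 728 of 5468 genes passed (13.3%; 5.43% higher and 7.88% lower), and 589 genes passed in both fits, all 589 in the same direction. GC B-like cells were 7 of 8, 13 of 17 and 1 of 5 of the mutated cells in the 3 sums and gave 127431 of 159922, 148185 of 205397 and 40434 of 56019 UMIs, the last from a single cell (72.2%). The part of GC B-like cells in the contrast was not tested here. That single cell of LDHA-deficient mouse 3 had a second heavy contig. It was also lost when the top hashtag had to be at least 5 times the second (ratio hashtag calls). The mutated sum of that mouse then held 4 cells and 15585 UMIs. Without the chains found in 2 mice, 671 genes passed on 2 mice, and Dtx1, Egr1, Lck, Msh6, Rel, Vpreb3 and mt-Co2 lost their calls (adjusted p from 0.069 for mt-Co2 to 0.122 for Rel).

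Genes of dividing cells were higher together. Mki67, a marker of dividing cells, stood at 1501, 2132 and 4800 CPM in the mutated cells of LDHA-sufficient mice 1, 2 and 3 and at 142, 948 and 1785 in those of LDHA-deficient mice 1, 2 and 3. In unmutated cells it stood at 460, 404 and 271 and at 204, 74.1 and 333. Mutated cells were higher in 5 of 6 mice, all but LDHA-deficient mouse 1, whose value rests on 2 cells. The fitted log2 fold change was 2.09 (SE 0.18, edgeR adjusted p = 4.37e-06). Of the 46 measured G2 and M phase genes 42 rose and none fell, with a median log2 fold change of 1.95 against -0.04 over all genes tested. Examples are the topoisomerase Top2a (2.19) and the mitotic ubiquitin enzyme Ube2c (2.35). Of 38 S phase genes 24 rose and none fell (median 1.26), among them the ribonucleotide reductase genes Rrm1 (1.70) and Rrm2 (1.94). Of the 10 largest rises, Oip5 (3.58), Cdc25c (3.30), Kif2c (3.27), Cdca2 (2.95) and Racgap1 (2.94) act in mitosis or cytokinesis.

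Of the 13 GC B cell markers 10 rose, 1 fell and 2 did not pass, with a median log2 fold change of 2.26. S1pr2, a receptor that holds B cells in the GC, stood at 125, 161 and 170 CPM in mutated and 12.0, 18.0 and 8.62 in unmutated cells of LDHA-sufficient mice 1, 2 and 3. In LDHA-deficient mice 1, 2 and 3 it stood at 142, 61.1 and 53.6 in mutated and 0, 4.52 and 0 in unmutated cells. The groups did not overlap (log2 fold change 3.31, SE 0.44, edgeR adjusted p = 0.000134). Mef2b, a transcription factor that drives Bcl6, rose by 2.91 (SE 0.36), Mybl1 by 2.62 and the GC-enriched gene Nuggc by 3.14. Lmo2 was the member that fell (-1.97). Bcl6 itself, the master regulator of the GC state, did not pass (0.69, SE 0.34, adjusted p = 0.196). Without cells over 25000 UMIs it passed (1.09, adjusted p = 0.0310). Of 10 dark zone markers, which are largely mitotic genes and overlap the G2 and M phase list, 8 rose, Cdc20 (2.47) and Plk1 (2.15) among them. Of 9 light zone markers 1 rose (Basp1, 3.14, with 0 UMIs in mutated cells of LDHA-deficient mouse 3) and 2 fell (Fcer2a and Egr3).

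Genes of the hypermutation machinery rose in part, 4 of 13 measured, with none lower and a list median of 0.30. They included Hmces (2.44), which shields abasic sites, the translesion polymerase Polh (1.78, lost without LDHA-sufficient mouse 2, adjusted p = 0.101) and the mismatch repair gene Msh6 (1.32, lost with DESeq2, adjusted p = 0.0539).

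Memory, follicular and marginal zone genes were lower. Of 7 measured memory B markers 6 fell (median -2.64), of 9 follicular markers 7 fell (median -1.87) and of 7 marginal zone markers 4 fell (median -1.67), and none of these lists had a gene that rose. Cd38, an ectoenzyme that mouse GC B cells lose and memory B cells keep, fell by 2.22 on the log2 scale (SE 0.32, edgeR adjusted p = 0.000237). Its level in mutated cells was 37.5 and 77.9 CPM in LDHA-sufficient mice 1 and 2 but 340 in mouse 3, and 638, 61.1 and 125 in the deficient mice. The highest level in unmutated cells was 338. LDHA-sufficient mouse 3 and LDHA-deficient mouse 1, with 1 and 2 mutated cells, were thus not lower. The chemokine receptor Ccr6 (-4.04), the migration receptor Gpr183 (-2.14), the quiescence factor Klf2 (-2.66, lost with DESeq2, adjusted p = 0.135), the IgE receptor Fcer2a (-2.29) and the complement receptor Cr2 (-2.55) also fell.

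The 10 largest falls otherwise were genes with few UMIs. Rhbdf2 and Abcg1, a lipid exporter, had 0 UMIs in the mutated sums of the 3 mice against 96 and 91 in the unmutated ones. Against a floor of 3 UMIs over the group they were at least 5.60-fold and 5.31-fold lower. S100a6 (-4.53), Cobll1 (-4.50), Kdm5b (-4.24), Trim30b (-4.19), Fam43a (-4.15) and the RNA sensor Tlr7 (-4.02) had 1 UMI each in the mutated sums, and Fam43a lost its call with DESeq2 (adjusted p = 0.0504). Among the largest rises, Asns, which makes asparagine (4.83), and the adaptor Sh2b2 (3.92) rested on 18 and 16 UMIs.

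B lineage genes were lower as well, 7 of 8 with a median of -0.84, while 3 of 8 fell over all 6 mice. Cd74, the invariant chain of MHC class II, fell by 0.86 on the log2 scale (SE 0.09) in the 3-mouse fit. Over all 6 mice it did not pass (-0.57, adjusted p = 0.134): it stood at 8629 and 8773 CPM in mutated cells of LDHA-sufficient mice 1 and 2 and at 7444 in LDHA-deficient mouse 3, but at 14019 to 18495 in the other mice, against 12690 to 15282 in unmutated cells. Cd79a (-0.96), a signalling chain of the antigen receptor, fell too. Of 10 measured glycolysis genes without Ldha 3 rose and none fell (median 0.64): Gapdh (1.03, SE 0.18, lost over 6 mice without shared chains, adjusted p = 0.058), Pgam1 (1.05, lost over 6 mice, adjusted p = 0.168) and Tpi1 (1.05, lost without cells over 25000 UMIs at 0.30, adjusted p = 0.812). Mitochondrially encoded genes had a median of -0.43, and mt-Nd2 and mt-Co2 fell, with neither passing over 6 mice (adjusted p = 0.106 and 0.476).

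Of 16 measured genes that antigen receptor or CD40 signals induce, 1 rose (Batf, lost without LDHA-sufficient mouse 1, adjusted p = 0.468) and 3 fell: Egr3 (-2.37), lost without LDHA-sufficient mouse 1 (adjusted p = 0.10), Egr1 (-2.09), lost with DESeq2 (adjusted p = 0.167), and Rel (-0.97), lost with DESeq2 (adjusted p = 0.130). Myc did not pass (0.24, SE 0.34, adjusted p = 0.700). Of 7 plasma cell markers 1 rose (Derl3, lost without LDHA-sufficient mouse 1, adjusted p = 0.165). The level of that list was 1062 to 4221 CPM in mutated and 892 to 2012 in unmutated cells, and 1 mutated cell of LDHA-sufficient mouse 1 was plasma cell-like. Of the switched constant regions Ighg3 rose (1.80, adjusted p = 0.00613), lost without LDHA-sufficient mouse 1 (1.00, adjusted p = 0.304). In the other lists, called genes and genes measured were 3 of 5 for transitional B, 2 of 5 for B-1, 1 of 4 for interferon response, 1 of 6 for dissociation stress, 1 of 4 for myeloid and dendritic cell (Tyrobp, -2.61, with 3 UMIs in mutated cells and no call with DESeq2, adjusted p = 0.141) and 1 of 1 for T and NK cell (Lck, 1.56, with no call with DESeq2, adjusted p = 0.217). None of the red cell genes passed the filter on low counts.

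**Figure D5:**
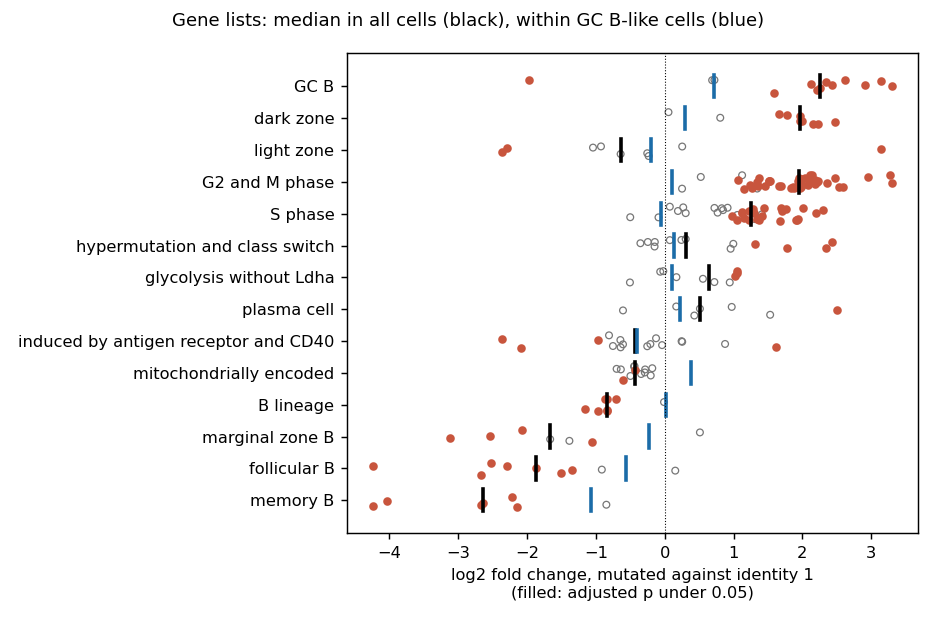
Log2 fold change of each measured gene (points, filled when the adjusted p is under 0.05) in mutated against unmutated cells of 3 mice, by gene list, with the list median in black and the median of the same list within GC B-like cells of 2 mice in blue. The black median of GC B genes is 2.26 (13 measured genes) and that of memory B genes is -2.64 (7 genes). The blue medians are 0.72 (12 genes) and -1.08, the latter on only 2 measured genes, neither of them called.

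Within GC B-like cells alone few genes differed. With at least 5 cells per sum this left LDHA-sufficient mice 1 and 2, with 7 and 13 mutated and 6 and 12 unmutated cells. There 6 of 2906 genes passed (0.206%), 2 higher (0.0688%) and 4 lower (0.138%), and 134 had an unadjusted p under 0.05. Of the 6, 4 were antibody segments. The others were Basp1, higher by 1.88 (SE 0.34, edgeR adjusted p = 0.0367), and the lysosomal gene Psap, which fell by 2.17 on the log2 scale (SE 0.37, adjusted p = 0.0266). Over cells of all clusters, not only the GC B-like ones tested, Psap stood at 62.5 and 219 CPM in mutated and at 635 and 636 in unmutated cells of these mice. The G2 and M phase list had 0 of 42 genes called and a median of 0.11 there, and the S phase list 0 of 34 and -0.06. Among cells of the remaining clusters, with plasma cell-like cells also left out, edgeR called 0 of 4429 genes over 4 mice with sums of as little as 1 cell, and 363 had an unadjusted p under 0.05. The mutated sums there held 4 cells (57212 UMIs) in LDHA-sufficient mouse 2. In LDHA-deficient mice 1, 2 and 3 they held 1, 2 and 4 cells (7565, 5377 and 15585 UMIs). With so few cells, 0 calls do not show that the classes were alike. DESeq2 was not run for the fits within GC B-like cells or in the remaining clusters.

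Ldha, the gene deleted in the LDHA-deficient mice, had 90, 69 and 1 UMIs in the mutated cells of LDHA-sufficient mice 1, 2 and 3 and 0, 1 and 2 in those of LDHA-deficient mice 1, 2 and 3. In CPM this was 563, 336 and 42.5 and then 0, 30.6 and 35.7, against 198, 242 and 172 and 51.0, 45.2 and 78.6 in unmutated cells. The single mutated cell of LDHA-sufficient mouse 3 was near the deficient ones. Mutated against unmutated, Ldha did not pass over both genotypes (0.66, SE 0.31, adjusted p = 0.172) and passed without LDHA-deficient mouse 3 (0.87, adjusted p = 0.0115). Between genotypes within mutated cells, the test with at least 5 cells per sum set LDHA-sufficient mice 1 and 2 against LDHA-deficient mouse 3 alone, which is assumed to vary like the others. It called 28 of 3761 genes (0.744%), 14 in each direction (0.372%), the 5 with the smallest p being Igkv8-30, Gm42418, Ighv8-8, Malat1 and Hist1h1d. The deficient side is 1 mouse and mostly 1 cell, so these calls set that mouse apart from the other 2 and do not measure genotype. Over all 6 mice 0 of 649 genes passed, with 31 at an unadjusted p under 0.05. The test of whether the mutated against unmutated contrast differs between genotypes called 4 of 5799 genes (0.069%), with the same limit, and 2 of 5468 (0.0366%) over 6 mice.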

How the data were processed

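For genes and for hashtags the authors deposited raw UMI counts. The submitters' processing notes list Cell Ranger 6.0.0, Seurat 4.2.1 and mm10, while the header of the gene counts has Cell Ranger 6.0.2. Per the file headers, the heavy chain table gives V identity as a fraction, gapped alignments to germline, UMI counts and a clone number. Its tool and germline set are not stated there.

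Barcodes were matched by 16 letters, and identity was recomputed from the alignments. Hashtags were called with HTODemux (Seurat 5.3.0, quantile 0.99). Cells needed 500 genes, 1000 UMIs and under 10% mitochondrial UMIs. Hashtag doublets were left out. Doublets of 1 mouse were not removed. Clusters came from scanpy 1.11.5 (Leiden resolution 0.8, 20 neighbours, 30 components, 2000 variable genes), without Ldha, antibody, mitochondrial, ribosomal and sex-linked genes. Their names came from marker lists. A marker counted if it was raised 1.5-fold and the share of cells with it was 10% or more. The list behind each name had 5 to 16 such markers. These names are rebuilt and can differ from the study's.

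Sums of UMI counts were tested with edgeR 4.0.16 (quasi-likelihood, TMM, filterByExpr) with the mouse as a block, since both sums of a pair come from 1 animal. Deviations of the paired sums correlated at 0.12, 0.04 and 0.06. DESeq2 1.42.0 was the alternative. Levels are CPM of the sum, without TMM. On simulated counts of the 3-mouse fit (5799 genes), the fit recovered 28% of the genes with a simulated log2 change of 1 and 80% with 2, with 14 false calls among 122. Genes named are Ldha, Bcl6, Mki67, Myc and Cd38, the 10 largest rises and falls with the same sign in each mouse, genes among the 4 of each list with the smallest p, the 5 smallest p by genotype, the 8 V genes with most mutated barcodes and the largest clones. Psap, Lmo2, Ighm, Ighd and Basp1's test within GC B-like cells were added after their values were seen. Some named genes are not reported here. The rule, members and lists were chosen with earlier results of these data known. Intervals cover counting error only.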

Additional observations from a re-analysis of the deposited data

Results flagged for a closer look

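The test of whether the mutated against unmutated contrast differs between the genotypes, over LDHA-sufficient mice 1 and 2 and LDHA-deficient mouse 3, called 4 of 5799 genes (0.069%). The deficient side is 1 mouse, and 1 of its 5 mutated cells, with a second heavy contig, gave 72.2% of its UMIs. The calls thus set that mouse apart and do not measure genotype. The fitted difference in log2 fold change was 13.5 for Igkv8-30, 8.72 for Ighv9-3, 6.63 for Iglv2 and 0.82 for Malat1. Igkv8-30 had 112 UMIs in the mutated cells of LDHA-deficient mouse 3 and 0 in those of the other 5 mice, and Ighv9-3 had 8 UMIs there against 1 and 0 in LDHA-sufficient mice 1 and 2, so the fitted values of both depend on the prior count. Malat1, a nuclear RNA, was lower in mutated than in unmutated cells of all 3 mice, by less in the deficient one. It stood at 4383 against 13678 CPM in LDHA-sufficient mouse 1, 4679 against 12325 in LDHA-sufficient mouse 2 and 8872 against 15028 in LDHA-deficient mouse 3. In the mice outside this test it stood at 11300 against 14334 in LDHA-sufficient mouse 3. There it was 13747 against 13982 in LDHA-deficient mouse 1 and 9628 against 13722 in LDHA-deficient mouse 2. Over all 6 mice the test called 2 of 5468 genes, and Malat1 was not among them.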

How the results depend on the processing

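The 833 genes of the contrast between mutated and unmutated cells became 374 with DESeq2 (200 higher, 174 lower) and 446 with V genes seen in both classes. Leaving out LDHA-sufficient mouse 1 gave 526, mouse 2 gave 551 and LDHA-deficient mouse 3 gave 1130, each on 2 mice. Without the replicate block 1141 genes passed. The other alternatives for this count gave 671 to 951, and those on heavy contigs, ratio hashtag calls, shared chains and cells over 25000 UMIs kept 2 mice. The GC B-like difference of 60.7 points was 43.4 (exact permutation p = 0.25) under a stricter identity cutoff, 66.3 (p = 0.0625) with 5 or more heavy chain UMIs and a single contig, and 60.7 (p = 0.0625) without cells over 25000 UMIs. Leaving out 1 mouse gave 53.6 to 69.2, where the exact permutation test on 5 mice cannot go below p = 0.0625. The genotype difference in the mutated share, -2.37 points, ran from -4.41 to -0.185 without 1 mouse and reversed to 0.675 among cells of neither GC B-like nor plasma cell-like clusters. The 28 genes by genotype became 4 with DESeq2, 17 without the low count filter and 0 over all 6 mice, with 0 to 2 without 1 of these mice. The 4 genes of the interaction became 2 over all 6 mice, and the 6 within GC B-like cells became 0 of 604 (19 at an unadjusted p under 0.05). Signs reversed, with no call before or after, for Ighg2b without LDHA-sufficient mouse 1 (0.054; leaving out 1 mouse ran from -3.60 to 0.054), with ratio hashtag calls (0.23), without shared chains (0.0087) and without cells over 25000 UMIs (0.39), for Irf8 without the filter (-0.022) and without LDHA-sufficient mouse 2 (-0.30, against 0.32 without LDHA-deficient mouse 3), and without cells over 25000 UMIs for Creld2 (-1.19), Isg15 (0.37), Myc (-0.044), Xbp1 (-0.18) and mt-Atp6 (0.084). The cause of these changes was not tested. No value could be had for genes under the stricter cutoff, with 10 cells per sum, or for the cells of the remaining clusters with 5 cells per sum, since fewer than 2 mice had enough cells. Leaving out mice from the genotype test with 5 cells per sum was not possible with 3 sums. The fits within GC B-like cells and, with sums of as little as 1 cell, in the remaining clusters, and settings on all 6 mice, without shared chains and without cells over 25000 UMIs were chosen after seeing the data. The deficient mice hold 11 mutated cells in all, which limits every value by genotype.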

Other observations

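IgM transcripts overlapped between the classes, while IgD transcripts did not. Ighm stood at 6009, 3033 and 3483 CPM in mutated cells of LDHA-sufficient mice 1, 2 and 3 and at 5690, 3661 and 5479 in unmutated cells, and at 6307, 3393 and 3784 against 4952, 2480 and 2659 in LDHA-deficient mice 1, 2 and 3. Ighd, the constant region that resting B cells co-express with IgM, stood at 37.5, 141 and 425 in mutated and at 663, 779 and 800 in unmutated cells of the sufficient mice. In the deficient mice it stood at 142, 153 and 375 against 861, 1069 and 875, so it was lower in 6 of 6 mice without overlap. By their heavy chain contig 258 of the 963 unmutated cells were IGHD and all 37 mutated cells were IGHM, and the part of this split in the difference was not tested. The 18 mutated barcodes with hashtags of more than 1 mouse included both IGHD chains and the chain with the most mismatches, 15 in IGHV1-66.

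Some V positions were mismatched in clones of different V genes. IMGT positions 254 and 270 in framework 3 were each mismatched in 8 clones of 8 V genes, and positions 124, 191 and 198 in 7 clones each.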
